A study of Mus musculus with 12 samples.

Results

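Chemokine ligands are small secreted proteins that guide leukocytes. Of 10 CC and CXC ligand genes listed (*Ccl2*, *Ccl3*, *Ccl4*, *Ccl6*, *Ccl7*, *Ccl9*, *Ccl12*, *Cxcl2*, *Cxcl14* and *Cxcl16*), 9 were found by gene symbol in a deposited table of 13232 genes. *Ccl12* was not in the table and is not analysed here. The cells were macrophages grown with 20 ng/ml of M-CSF from the bone marrow of wild-type C57B6/J mice on 1 of 2 diets, normal (ND) or high-fat (HFD). All cultures went into a serum-free macrophage medium on day 4, still with M-CSF, and the 6 libraries described here were from cells held at 1% oxygen for 1 h on day 7, 3 of each diet. The table has no columns for the 6 normal-oxygen libraries that the labels also list, so nothing here measures the response to low oxygen. The labels do not say whether the 3 libraries of a diet came from separate mice, so the spread between them may be technical. The family was chosen by its values in these libraries, because *Ccl3* and *Ccl4* were lower in HFD, so the difference of its members between diets is given as a description, without a test.

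Chemokines act through G protein-coupled receptors on the cells they attract. CCL3 acts on CCR1 among others, and CCL6 and CCL9 are rodent ligands of CCR1. CCL2, CCL7 and CCL12 draw monocytes through CCR2, CXCL2 draws neutrophils through CXCR2, and CXCL16 is made as a membrane protein that ADAM10 can shed. Macrophages are a main source of many of these ligands, and several of their genes are induced through NF-κB when the cell is stimulated.

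Values are normalized counts, gene counts that the authors had scaled by library. Estimated depth, counted only over the genes of the table, was 19046400 to 22805200 reads in ND and 23017000 to 24491500 in HFD. Each HFD library thus had more reads in these genes than each ND library before scaling. On the first principal component of 10794 genes (43.3% of the variance), ND replicate 3 scored 3.43 and lay with the HFD libraries (1.33 to 11.4) and away from ND replicates 1 and 2 (-14.0 and -13.5). It was the ND library nearest to the HFD mean for 6 of the 9 ligands, and results are therefore also given without it. Since it was singled out by its values, for lying near the HFD libraries, differences and p-values without it are conditioned on the outcome. They are given as a description and support nothing. All 12 macrophage markers looked for (among them *Lyz2*, *Csf1r* and *Adgre1*) were in the table, with a summed level, mostly *Lyz2*, of 398744 to 443032 in ND and 391496 to 462330 in HFD. Among them *Cd14* was lower in HFD without overlap (log2 fold change -0.29, SE 0.078, limma adjusted p 0.281) and *Adgre1* higher without overlap (0.16, SE 0.077, limma adjusted p 0.52). No dendritic or erythroid marker was in it. In bulk RNA, fewer cells of a type and less RNA per cell cannot be told apart.

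Most of these genes sit close together on chromosome 11. *Ccl9* (chr11:83572919-83578636), *Ccl6* (chr11:83587882-83593087) and *Ccl3* (chr11:83647844-83649355) lie on the minus strand and *Ccl4* (chr11:83662584-83664683) on the plus strand (GENCODE M21, GRCm38, the same assembly as the mm10 named in the submitters' processing notes). The starts of *Ccl3* and *Ccl4* are 13.2 kb apart, those of *Ccl3* and *Ccl6* 56.3 kb and those of *Ccl6* and *Ccl9* 14.5 kb. *Ccl2* (chr11:82035571-82037453) and *Ccl7* (chr11:82045712-82047525) start 10.1 kb from each other on the plus strand, 1604 kb before *Ccl3*. *Cxcl16* (chr11:70453983-70459984, minus strand) is on the same chromosome, while *Cxcl2* (chr5:90903871-90905938, plus) and *Cxcl14* (chr13:56288643-56296551, minus) are not.

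The 250 bases before the start are shown for the minus-strand genes of this cluster, because *Ccl3* differed from *Ccl6* and *Ccl9* in direction, and for *Cxcl2*, which served as a comparison (RefSeq, GRCm38.p6; each read 5′ to 3′ on the gene's own strand). Capitals mark matches on either strand to the NF-κB consensus or to the TATA box letters TATAAA. The regions are chr11:83649379-83649628 for *Ccl3*, chr11:83593088-83593337 for *Ccl6*, chr11:83578637-83578886 for *Ccl9* and chr5:90903649-90903898 for *Cxcl2*.
Ccl3: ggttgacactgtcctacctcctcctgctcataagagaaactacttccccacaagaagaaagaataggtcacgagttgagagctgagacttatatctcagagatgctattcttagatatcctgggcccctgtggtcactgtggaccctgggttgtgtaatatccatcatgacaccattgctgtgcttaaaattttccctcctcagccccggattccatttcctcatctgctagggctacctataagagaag
Ccl6: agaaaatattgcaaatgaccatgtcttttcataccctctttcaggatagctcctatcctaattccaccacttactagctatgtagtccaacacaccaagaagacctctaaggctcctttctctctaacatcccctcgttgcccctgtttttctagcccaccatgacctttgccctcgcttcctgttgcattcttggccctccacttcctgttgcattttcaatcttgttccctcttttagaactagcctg
Ccl9: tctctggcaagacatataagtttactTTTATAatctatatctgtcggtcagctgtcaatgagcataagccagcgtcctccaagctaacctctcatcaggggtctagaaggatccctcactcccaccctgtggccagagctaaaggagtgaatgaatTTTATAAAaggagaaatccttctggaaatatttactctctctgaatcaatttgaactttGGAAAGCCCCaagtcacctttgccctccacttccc
Cxcl2: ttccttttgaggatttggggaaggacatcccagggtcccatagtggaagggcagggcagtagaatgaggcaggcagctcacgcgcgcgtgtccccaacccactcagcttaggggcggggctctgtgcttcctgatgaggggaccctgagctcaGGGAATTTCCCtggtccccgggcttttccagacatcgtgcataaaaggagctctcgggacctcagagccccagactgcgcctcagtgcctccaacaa

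The *Ccl3* and *Ccl6* windows held none of the motifs searched, which were also AP-1 (TGACTCA or TGAGTCA), the CRE core TGACGT and the HIF core ACGTG, all on both strands. *Ccl9* had 1 NF-κB match, 35 to 26 bases upstream, and 3 matches to the TATA letters, 2 of which overlap because TATAAA and its reverse complement share bases. *Cxcl2* had 2 overlapping NF-κB matches on opposite strands, between 97 and 87 bases upstream. The *Cxcl14* window held none. Of 32851 mouse promoter windows of the same length, 3.90% held the NF-κB consensus, 12.4% the TATA letters, 4.46% an AP-1 match, 6.47% the CRE core and 16.6% the HIF core. A match of letters is not a bound site, and its absence from this window says nothing about a factor elsewhere. Promoter windows were matched for 6 of the 10 listed genes. None was found for *Ccl2*, *Ccl4*, *Ccl7* or *Cxcl16*, so these were not searched.

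*Ccl3* and *Ccl4*, which encode the inflammatory proteins MIP-1α and MIP-1β, were the ligands that defined the choice and were lower in HFD. *Ccl3* was at 1052, 971 and 828 normalized counts in ND replicates 1 to 3, and at 612, 597 and 737 in HFD replicates 1 to 3. Every HFD library was below every ND library, the closest pair being ND replicate 3 and HFD replicate 3. The means were 950 ± 113 and 649 ± 77.0 (SD, n = 3 libraries each), and the log2 fold change, on log2(value + 1), was -0.55 (limma SE 0.11), or -0.64 without ND replicate 3. *Ccl4* was at 426, 375 and 363 in ND and at 233, 185 and 269 in HFD. Again the diets did not overlap, with a wider gap than for *Ccl3* (363 against 269 at the closest). Its means were 388 ± 33.8 and 229 ± 41.9 (SD, n = 3 libraries each), with a log2 fold change of -0.77 (SE 0.14), or -0.82 without ND replicate 3.

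Both genes were well covered: *Ccl3* had an estimated 619 reads or more in each library and *Ccl4* 192 or more, so that counting error in the shallowest case was 4.02% and 7.22% of the value. The ratio of *Ccl3* to *Ccl4* was 2.28 to 2.59 in ND and 2.63 to 3.22 in HFD. The diets did not overlap, but the gap between ND replicate 2 and HFD replicate 1 was smaller than the counting error of either gene. By the means *Ccl4* was lower by the larger factor, and whether the 2 genes differed in this was not tested. One RefSeq model of *Ccl4* runs back across 755 bases of *Ccl3* on the other strand (chr11:83648624-83649378), whereas the GENCODE models do not overlap. The libraries were stranded, but the annotation and strand setting of the authors' counting are not given in the sources used here, so a sharing of reads between these genes is uncertain.

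Basophils, mast cells, NK cells and T cells can also make CCL3 and CCL4. Of 10 mast cell and basophil markers only *Kit*, a receptor also found on progenitors, was in the table, and it too was lower in HFD (117 to 226 in ND, 72.4 to 104 in HFD). *Mcpt8*, *Cpa3*, *Fcer1a* and *Ms4a2*, which define those cells, were not in the table. Of 13 T and NK cell markers only *Cd4* was in it (202 to 356 in ND, 98.1 to 230 in HFD), and *Cd3e*, *Ncr1* and *Nkg7* were not. The part of such cells in the *Ccl3* and *Ccl4* values was not tested.

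**Figure D1:**
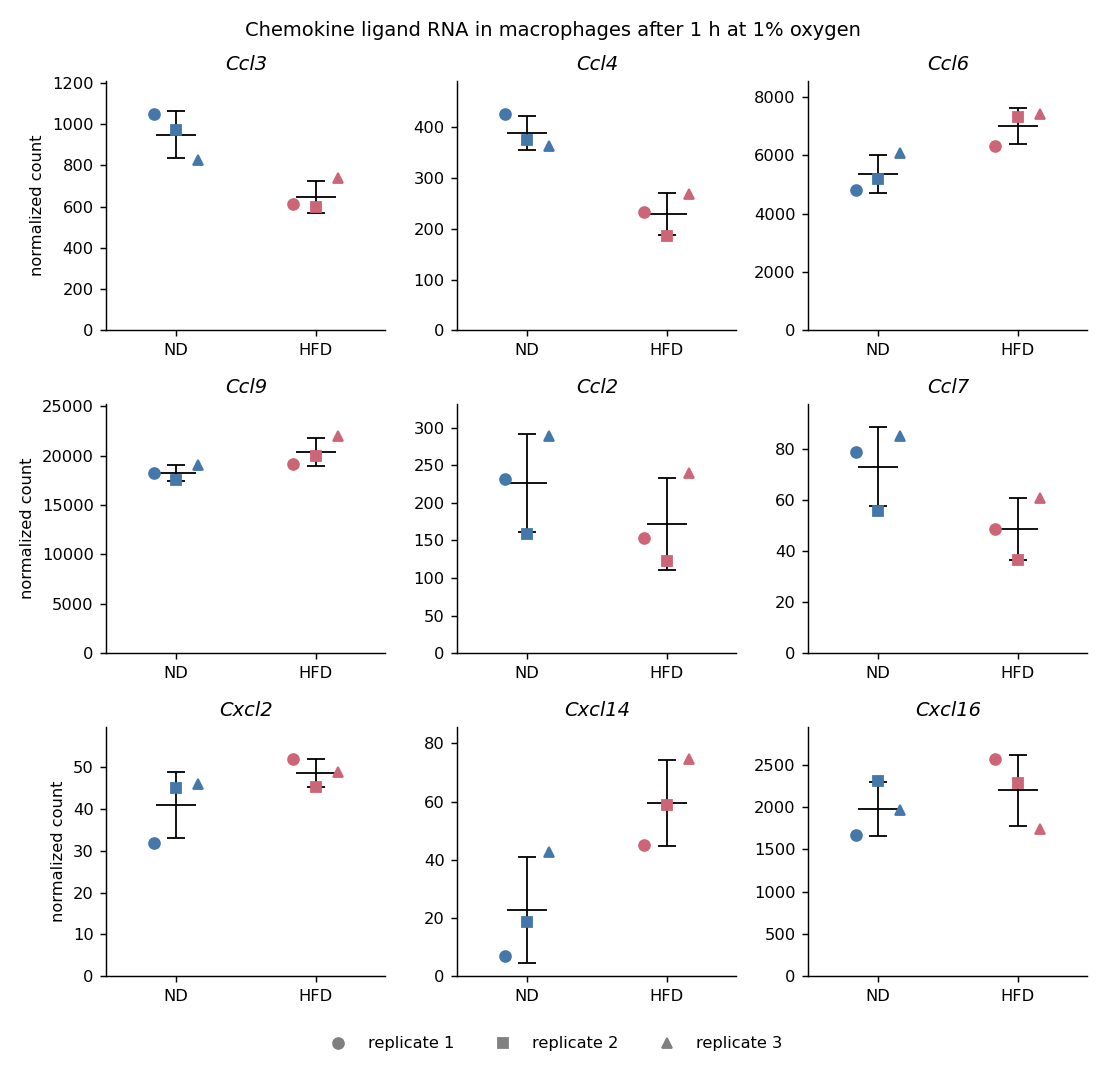
Normalized counts (linear axes from 0) of each ligand in the 3 ND and 3 HFD libraries, with a point per library, a bar at the mean and whiskers of 1 SD. All HFD points lie below all ND points for *Ccl3* and *Ccl4*, and above them for *Ccl6*, *Ccl9* and *Cxcl14*.

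*Ccl6* and *Ccl9*, the neighbours of *Ccl3* and the most abundant ligands here, were higher in HFD. *Ccl6* was at 4828, 5191 and 6080 in ND and at 6311, 7299 and 7433 in HFD. The diets did not overlap, but ND replicate 3 came within 1.04-fold of HFD replicate 1. Means were 5367 ± 644 and 7014 ± 613 (SD, n = 3 libraries each), with a log2 fold change of 0.39 (SE 0.096), or 0.48 without ND replicate 3. *Ccl9* was at 18203, 17480.4 and 19069.8 in ND and at 19172, 19928 and 21929 in HFD. Here the gap was narrower still, 1.005-fold between ND replicate 3 and HFD replicate 1. That is less than the counting error of a single library, 0.643% to 0.787% of the value. The difference of means was 11.5% of the ND mean (18251 ± 796 against 20343 ± 1425, SD, n = 3 libraries each), or 0.16 as a log2 fold change (SE 0.074). Without HFD replicate 3 the *Ccl9* log2 fold change was 0.10. The ratio of *Ccl6* to *Ccl3*, 2 genes of one cluster that differed in opposite directions, was 4.59, 5.35 and 7.34 in ND and 10.3, 12.2 and 10.1 in HFD. In RefSeq the long noncoding gene *E230016K23Rik*, on the other strand, spans *Ccl6* and is not in the table.

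The monocyte attractants *Ccl2* and *Ccl7* had lower means in HFD with overlapping values. *Ccl2* was at 231, 158 and 288 in ND and at 153, 123 and 240 in HFD. The spread within a diet was as large as the difference between the means of 226 ± 65.0 and 172 ± 60.8 (SD, n = 3 libraries each; log2 fold change -0.41, SE 0.26). *Ccl7* was at 78.8, 55.7 and 85.0 in ND and at 48.9, 36.7 and 60.8 in HFD, with ND replicate 2 below HFD replicate 3. Its means were 73.2 ± 15.4 and 48.8 ± 12.1 (SD, n = 3 libraries each), and the log2 fold change was -0.58 (SE 0.24). With 38.0 to 79.0 estimated reads, counting error is 11.3% to 16.2% of the *Ccl7* value. Replicate 2 was the lowest and replicate 3 the highest library of each diet for both genes, and the ratio of *Ccl2* to *Ccl7* stayed between 2.84 and 3.94. Unlike *Ccl3* and *Ccl4*, both had a smaller difference without ND replicate 3 (-0.21 and -0.46). Stromal cells also make CCL2 and CCL7. Of 10 stromal markers 3 collagen genes were in the table, with a summed level of 177 to 549 in ND and 51.8 to 337 in HFD, and *Pdgfra*, *Pdgfrb*, *Lum*, *Dcn*, *Cxcl12*, *Lepr* and *Postn* were not. The part of such cells in the *Ccl2* and *Ccl7* values was not tested.

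Each of the 3 CXC ligands had a higher mean in HFD, by 11.1% for *Cxcl16*, 18.8% for *Cxcl2* and 162% for *Cxcl14*. *Cxcl14*, better known from epithelium and stroma and with a debated receptor, was at 6.98, 18.6 and 42.5 in ND and at 45.0, 58.9 and 74.5 in HFD. The diets did not overlap, though ND replicate 3 nearly reached HFD replicate 1, and the ND libraries differed more among themselves than the HFD libraries did. The means were 22.7 ± 18.1 and 59.5 ± 14.7 (SD, n = 3 libraries each), a log2 fold change of 1.64 (SE 0.52), and 2.24 without ND replicate 3 or 1.02 without ND replicate 1. These levels rest on 7 to 82.0 estimated reads, and at the lowest the counting error is 37.8% of the value. The part of stromal cells in them was not tested. *Cxcl2* was at 31.9, 45.0 and 46.1 in ND and at 51.9, 45.2 and 49.0 in HFD (log2 fold change 0.26, SE 0.22), where ND replicates 2 and 3 were like the HFD libraries and only ND replicate 1 was lower. With 32.0 to 53.9 estimated reads, counting error is 13.6% to 17.7% of its value. *Cxcl16* was at 1663, 2300 and 1964 in ND and at 2561, 2287 and 1735 in HFD. Its values overlapped widely (log2 fold change 0.15, SE 0.15), and without HFD replicate 1 the difference was 0.025. In RefSeq, *Cxcl16* shares 552 bases with *Zmynd15* on the other strand, and *Zmynd15* had a log2 fold change of -0.067 (SE 0.17).

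Across the 9 ligands, 4 were lower and 5 higher in HFD by log2 fold change, with a median of 0.15 against -0.0034 over all 13232 genes. The diets did not overlap for 5 of the 9, with 2 lower and 3 higher in HFD. Over the whole table that was so for 14.5% of genes, 7.07% with HFD lower and 7.44% with HFD higher. Since the genes were chosen with this contrast in view, nothing is read from that count. A limma fit over the whole table, with Benjamini-Hochberg adjustment, called 0% of genes (0 of 13232) at an adjusted p under 0.05, and 1401 (10.6%) had an unadjusted p under 0.05. That count of calls depended on the fit: 1133 genes (8.56%) were called with limma array weights, 233 (1.76%) without ND replicate 3 and 31 (0.234%) with a replicate block.

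**Figure D2:**
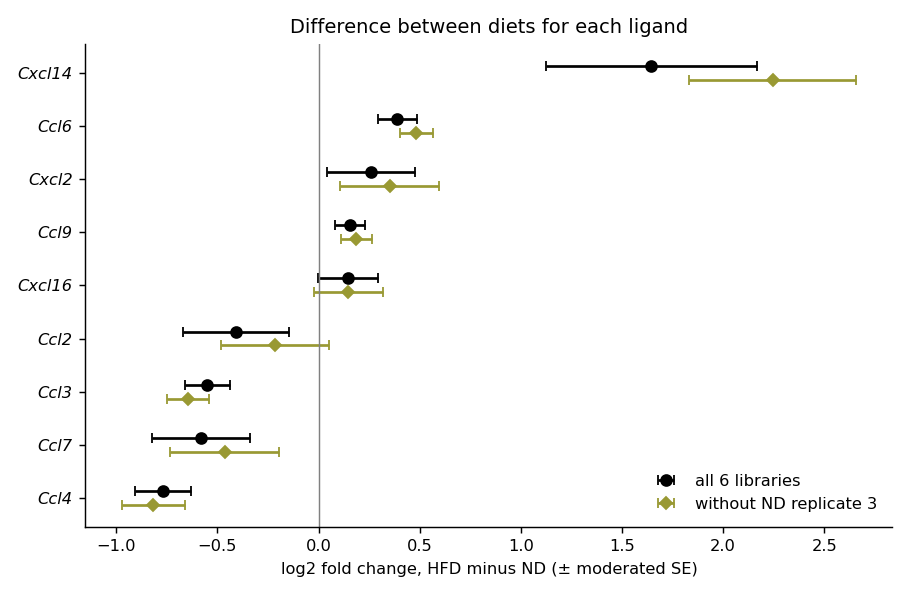
Log2 fold change of HFD against ND for each ligand with its moderated SE, from all 6 libraries (circles) and without ND replicate 3 (diamonds). The circles run from -0.77 for *Ccl4* to 1.64 for *Cxcl14* and the diamonds from -0.82 to 2.24 for the same genes, and no ligand changed side without ND replicate 3.

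Per kilobase of the longest GENCODE transcript, the ligands differed from each other by far more than the diets did. *Ccl9* was highest at 6419 ± 513 normalized counts per kb over the 6 libraries (SD), followed by *Ccl6* at 4299 ± 738 and *Ccl3* at 1044 ± 243. The lowest *Ccl9* library was above the highest *Ccl6* library, and the same held for *Ccl6* over *Ccl3*. *Ccl3*, *Cxcl16* (773 ± 131) and *Ccl4* (467 ± 141) followed with neighbouring ranges that overlapped. *Ccl2* (181 ± 58.1) was below *Ccl4* in every library and above *Ccl7* (76.2 ± 22.7), without overlap. *Cxcl14* (22.5 ± 13.7) and *Cxcl2* (21.7 ± 3.32) were lowest. The order of their means differed between diets, *Cxcl14* being below *Cxcl2* in ND (12.4 ± 9.92 against 19.8 ± 3.81) and above it in HFD (32.5 ± 8.06 against 23.6 ± 1.61; SD, n = 3 libraries each). ND replicate 3 (23.3 against 22.3) and HFD replicate 1 (24.6 against 25.1) had the order of the other diet. The order of the means over all 6 libraries also turned when the longest coding transcript, an alternative chosen after seeing the data, was used (22.5 against 24.1). On that length the *Ccl2* mean was 245, and the ranges of *Ccl2* and *Ccl4* overlapped.

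Of the summed per-kb level of the 9 ligands, *Ccl9* made up 47.1% to 49.2% in every library. The share of *Ccl6* was 27.1% to 31.7% in ND and 33.4% to 36.7% in HFD, while that of *Ccl3* was 8.10% to 11.1% in ND and 5.64% to 6.49% in HFD. Taken as pairs on the same per-kb scale, *Ccl3* and *Ccl4* summed to 1828 ± 194 in ND and 1194 ± 159 in HFD, and *Ccl6* and *Ccl9* to 9798 ± 665 and 11638 ± 850 (SD, n = 3 libraries each). The first pair was lower by 34.7% of its ND mean and the second higher by 18.8%.

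**Figure D3:**
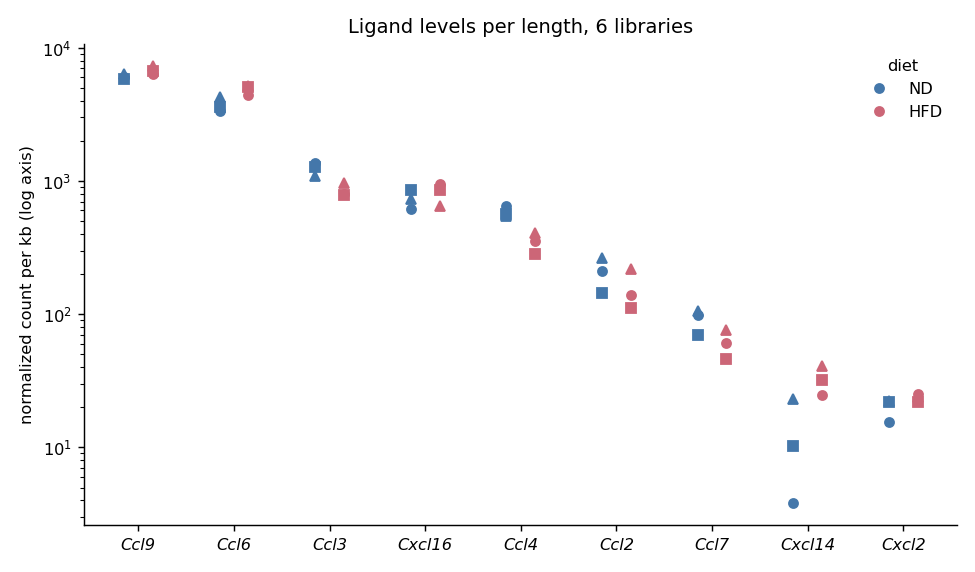
Normalized counts per kb of transcript (log axis) for the 9 ligands in order of their mean, with a point per library and a colour per diet. *Ccl9* and *Ccl6* stand above all other ligands in all 6 libraries, and *Cxcl14* and *Cxcl2* lie lowest.

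The receptors were taken from a list of 23, of which 7 were in the table. None passed the fit in either direction (adjusted p from 0.278 to 0.779, limma with Benjamini-Hochberg adjustment). By log2 fold change 2 were lower and 5 higher, with a median of 0.17. *Ccr1*, the receptor of CCL3, CCL6 and CCL9, was at 431, 449 and 776 in ND and at 750, 982 and 1078 in HFD. ND replicate 3 lay among the HFD libraries, above HFD replicate 1. The log2 fold change was 0.80 (SE 0.21, limma adjusted p 0.278), and without ND replicate 3 it was 1.07 (limma adjusted p 0.0144). *Ccr3*, the eotaxin receptor, was alike at 482, 573 and 886 in ND and 919, 1061 and 1072 in HFD, without overlap (log2 fold change 0.70, SE 0.18, limma adjusted p 0.278, or 0.0105 without ND replicate 3). Over all alternatives the limma adjusted p of either receptor ran from 0.0068 to 0.879.

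*Ccr2*, the receptor of CCL2 and CCL7, had a log2 fold change of 0.12 (SE 0.12, limma adjusted p 0.779). The *Ccr2* value turned to -0.031 without ND replicate 2. *Cx3cr1*, the fractalkine receptor, was at 0.24 (SE 0.23) and *Cxcr4*, the receptor of CXCL12, at -0.27 (SE 0.14, limma adjusted p 0.551). Leaving out 1 library gave 0.041 (without HFD replicate 3) to 0.43 (without HFD replicate 1) for *Cx3cr1* and -0.43 (without ND replicate 3) to -0.15 (without HFD replicate 3) for *Cxcr4*. *Cxcr3* was at -0.19 (SE 0.18), at -0.30 without ND replicate 3 and at -0.11 without HFD replicate 3. *Cxcr2*, through which CXCL2 acts, and *Cxcr6*, the receptor of CXCL16, were not in the table. Neutrophils also carry CCR1. Of 11 neutrophil markers 6 were in the table, with a summed level of 1712 to 2455 in ND and 2109 to 3430 in HFD. *Mmp8* was higher in HFD without overlap (443 to 463 in ND, 707 to 1032 in HFD), the other 5 (*Lcn2*, *Ltf*, *Ngp*, *S100a8* and *S100a9*) overlapped, and *Elane*, *Mpo*, *Camp*, *Retnlg* and *Cxcr2* were not in the table. The part of neutrophils in the *Ccr1* values was not tested.

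Of 28 further chemokine ligands only 4 were in the table, and none passed. *Cxcl10*, an interferon-induced ligand of CXCR3, was at 155, 134 and 92.5 in ND and 133, 53.1 and 57.9 in HFD (log2 fold change -0.74, SE 0.33, limma adjusted p 0.475). HFD replicate 1 lay among the ND libraries, and without it the *Cxcl10* value was -1.15. *Pf4*, platelet factor 4, was at 566, 967 and 1299 in ND and 1506, 1886 and 1421 in HFD, without overlap (log2 fold change 0.83, SE 0.25, limma adjusted p 0.301). Without ND replicate 1 the *Pf4* value was 0.51 and without ND replicate 3 it was 1.10 (limma adjusted p 0.034 for the latter), and over all alternatives that p ran from 0.0099 to 0.886. *Cx3cl1* (0.27, SE 0.29) and *Ccl25* (-0.043, SE 0.097) had differences within their SE. Leaving out 1 library gave 0.11 (without ND replicate 1) to 0.58 (without ND replicate 2) for *Cx3cl1* and -0.10 (without ND replicate 3) to -0.00074 (without HFD replicate 2) for *Ccl25*. *Ccl5*, which lies in the same cluster as *Ccl3*, was not in the table, nor were *Cxcl1*, *Cxcl3*, *Cxcl9* and *Ccl22*.

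Proteases that shed or trim chemokines, together with the protease cofactor *Rhbdf2*, made up a list of 7, with 6 in the table, all 6 higher in HFD by log2 fold change (median 0.46) and none past the threshold. That median was 0.096 at a minimum mean of 100, which leaves out *Mmp14* (0.82, SE 0.34), and *Rhbdf2* turned to -0.032 without HFD replicate 1. *Mmp12*, macrophage elastase, which can cleave chemokines, was at 7264, 8895 and 18134 in ND and 21370 to 36815 in HFD, without overlap (log2 fold change 1.54, SE 0.31, limma adjusted p 0.184). *Mmp9*, gelatinase B, was at 63.9, 137 and 175 in ND and 234, 320 and 258 in HFD (1.21, SE 0.31, limma adjusted p 0.27), and its log2 fold change was 0.79 without ND replicate 1. Without ND replicate 3 the limma adjusted p was 0.0115 for *Mmp12* and 0.035 for *Mmp9*, and over all alternatives they ran from 0.0044 to 0.879. The CXCL16 sheddase *Adam10* (0.096, SE 0.062) and its relative *Adam17* (0.063, SE 0.059) had small values, as did *Rhbdf2* (0.048, SE 0.087), which helps ADAM17 to mature. *Adam10* ran from 0.057 without ND replicate 3 to 0.13 without HFD replicate 1. *Adam17* ran from 0.032 without HFD replicate 1 to 0.084 without ND replicate 2.

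**Figure D4:**
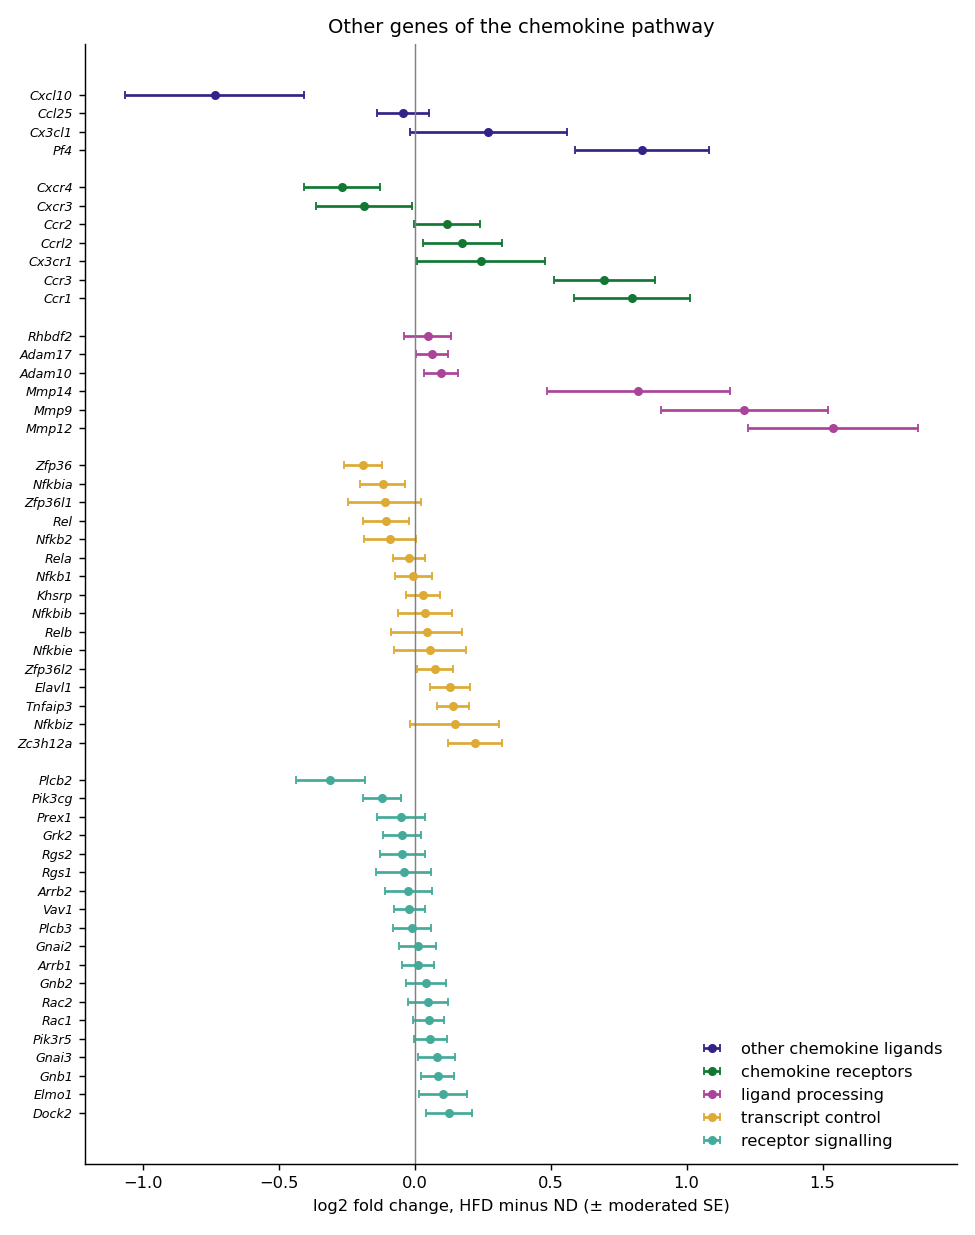
Log2 fold change of HFD against ND with its moderated SE for 52 other genes of the pathway in 5 lists. *Mmp12* lies highest at 1.54 and *Cxcl10* lowest at -0.74, and the genes of receptor signalling lie between -0.31 and 0.13.

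Genes that control ligand transcripts were all measured, 16 of 16, and none passed (7 lower, 9 higher, median log2 fold change 0.033). *Zfp36*, tristetraprolin, which promotes decay of several cytokine mRNAs, was at 3860, 4237 and 3656 in ND and 3545, 3238 and 3504 in HFD, without overlap (-0.19, SE 0.072, limma adjusted p 0.396). *Tnfaip3*, the NF-κB inhibitor A20, was without overlap in the other direction, at 1285, 1337 and 1371 in ND and 1456, 1469 and 1474 in HFD (0.14, SE 0.059, limma adjusted p 0.447). *Nfkbia*, the NF-κB inhibitor IκBα, was at -0.12 (SE 0.081), or -0.058 without HFD replicate 3. *Zc3h12a*, the RNase Regnase-1, was at 0.22 (SE 0.098, limma adjusted p 0.466) and *Nfkbiz* at 0.15 (SE 0.16). Without HFD replicate 1 these were 0.14 for *Zc3h12a* and -0.042 for *Nfkbiz*, and *Nfkbiz* was at 0.30 without HFD replicate 3. Signalling proteins below the receptors, 19 of 20 listed symbols in the table, had a median of 0.011, with 9 lower and 10 higher and none past the threshold. The symbol not found, *Adrbk1*, is an older name of *Grk2*, which was measured. *Plcb2* (-0.31, SE 0.13) and *Pik3cg* (-0.12, SE 0.071) were the lowest, and *Dock2* (0.13, SE 0.084) and *Elmo1* (0.10, SE 0.089) the highest. All 4 were smaller in size without 1 library: *Plcb2* was at -0.19 and *Pik3cg* at -0.058 without ND replicate 1, and *Dock2* at 0.036 and *Elmo1* at 0.016 without HFD replicate 3. Over all 52 genes of these lists the diets did not overlap for 1 lower and 6 higher in HFD, against the 7.07% and 7.44% of the whole table.

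The genes of the table next to the ligands were also read. From *Taf15* to *Heatr6* on chromosome 11 (chr11:83473073-83783754, RefSeq) there are 11 protein-coding genes, both of these included, and 7 of the 11 are in the table. *Wfdc17*, a small secreted protein gene with its start 54.6 kb beyond that of *Ccl3*, was at 1598, 2050 and 1305 in ND and 1290.2, 1017 and 1368 in HFD. HFD replicate 3 lay above ND replicate 3, and the log2 fold change of -0.42 (SE 0.16) did not pass (limma adjusted p 0.402). *Taf15* (-0.13, SE 0.12) and *Heatr6* (-0.019, SE 0.077), at the outer ends, had smaller values. Of the genes on either side of *Cxcl2*, *Pf4* had the log2 fold change of 0.83 (SE 0.25) given above and *Mthfd2l* was at -0.087 (SE 0.13). Beside the other CXC genes, *Tifab* and *Tgfbi* around *Cxcl14* were at 0.18 (SE 0.082) and -0.08 (SE 0.092), and *Med11* next to *Cxcl16* at 0.05 (SE 0.09).

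**Figure D5:**
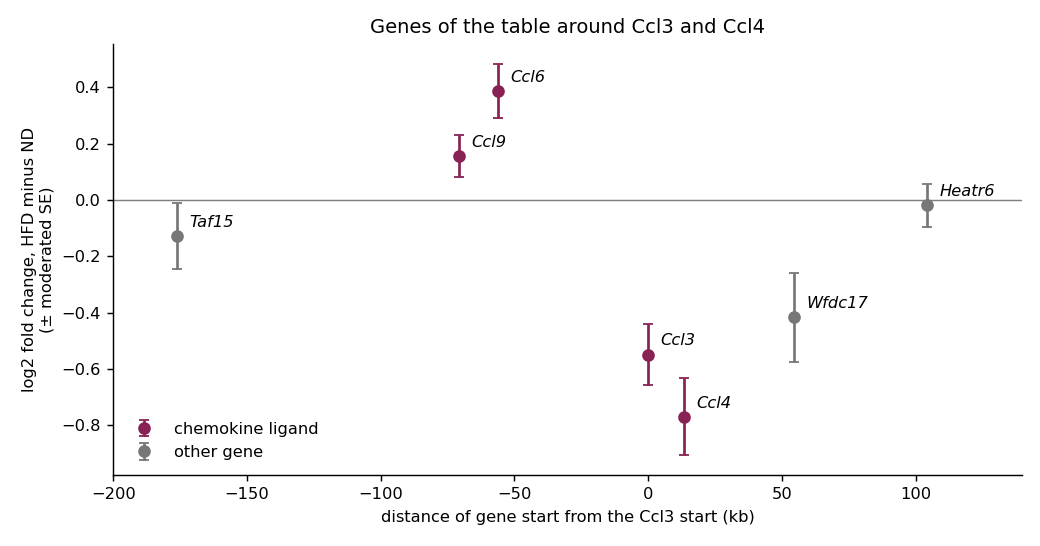
Log2 fold change of HFD against ND with its moderated SE for the 7 measured genes around *Ccl3*, against the distance of their start from that of *Ccl3* in kb. *Ccl6* (0.39) and *Ccl9* (0.16) lie above 0, and *Ccl3* (-0.55), *Ccl4* (-0.77) and *Wfdc17* (-0.42) below.

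To find genes with a like pattern, the log2 values of each gene were centred on its mean over the 6 libraries and compared with the average of *Ccl3* and *Ccl4* by root mean square difference, among 10792 genes with a mean of at least 100. The median gene differed by 0.37 on the log2 scale, and *Ccl3* and *Ccl4* each by 0.076 from their own average. The nearest were *Gm37058* (0.054), *Aldoc* (0.077), *Eps8* (0.08), *Mcoln3* (0.081) and *Gm21816* (0.094). *Mcoln3*, an endolysosomal cation channel, was at 270, 244 and 217 in ND and 153, 135 and 154 in HFD. *Eps8*, an actin regulator, was at 897, 806 and 697 in ND and 553, 498 and 608 in HFD. *Aldoc*, a glycolytic aldolase, was at 312, 243 and 222 in ND and 167, 148 and 199.8 in HFD. *Gm37058* and *Gm21816* are gene models that GENCODE leaves unclassified. The likeness rests on 6 libraries of 2 diets, so any gene that was lower in HFD by a similar amount scores well.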

How the data were processed

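RNA of bone marrow-derived macrophages was sequenced as stranded, ribosomal RNA-depleted libraries from 100 ng of total RNA, with single reads of 75 bases, per the labels. The submitters' processing notes name STAR, Partek and mm10 without versions or roles; annotation, filters and strand setting are not given in the sources used here. The authors deposited a signal, namely gene counts scaled library by library. The scaling shows in the numbers themselves: from 5 to 1000, 57.1% to 58.4% lay within 0.02 of a whole multiple of a fixed step (3.92% to 4.00% for other steps). The rest were fractional, so counts could not be recovered and the fallback fixed in the design was used. Column sums divided by that step gave the estimated reads, and counting errors cover counting only. NC in a column name was read as ND, and its number as the replicate.

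log2(value + 1) was fitted over all 13232 genes with limma 3.58.1 in R 4.3.3 (diet as the only term, mean-variance trend, two-sided, Benjamini-Hochberg adjustment, threshold 0.05). The filter at a mean of 1 removed 0 genes, the lowest mean in the table being 3.36. The procedure was tested on simulated data. Transcript lengths came from GENCODE M21, and gene order and promoters from RefSeq GRCm38.p6. The replicate numbers were not taken to pair libraries, as residuals of same-numbered libraries correlated at -0.037 to -0.00069.

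The ligands and the gene lists were chosen with earlier results of these data known. Genes named were every ligand, the 2 lowest and 2 highest of each pathway list, those past the threshold, *Ccl5*, *Cxcl10*, *Ccr1*, *Ccr2*, *Cxcr4*, *Cx3cr1*, *Adam10*, *Adam17*, *Nfkbia* and *Zfp36*, the 5 genes most like *Ccl3* and *Ccl4*, their neighbours and leading markers; others were chosen after their values were seen. A gene of the planned lists is not reported here and was left out of the list counts. Alternatives were another pseudocount, scaling, filters, array weights, no trend, the replicate block and leaving out each library. B cell markers in the table were 2 of 7 (*Ighm* and *Cd22*; sums 2085 to 3228 in ND, 2127 to 2301 in HFD) and endothelial markers 3 of 6 (2570 to 3799 and 2305 to 2381). *Ighm* and *Vwf* made up most of these sums, with log2 fold changes of -0.40 and -0.37; *Kdr* was at -0.51, while *Cd22* (0.32) and *Pecam1* (0.85) were of the other sign.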

Additional observations from a re-analysis of the deposited data

How the results depend on the processing

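Of 122 values of the 9 ligands under the alternatives, 121 moved by less than 1 SD between libraries, 0 changed sign, and 1 moved further, *Ccl4* with limma array weights (-0.99). Much of that tally was fixed in advance. A gene filter or the replicate block cannot change a ligand's log2 fold change. Leaving out 1 library can change its size or sign but cannot move it by that SD. Leaving out 1 library gave -0.64 to -0.47 for *Ccl3*, -0.89 to -0.63 for *Ccl4*, -0.68 (without HFD replicate 3) to -0.20 (without HFD replicate 2) for *Ccl2*, 0.10 (without HFD replicate 3) to 0.20 for *Ccl9*, 0.094 (without ND replicate 1) to 0.35 for *Cxcl2* and 0.025 to 0.31 for *Cxcl16*. The count of 0 genes called was 1133 with array weights, and 0 to 233 without 1 library, the highest without ND replicate 3. The unadjusted count of 1401 was 3646 with array weights and 700 (without ND replicate 1) to 2309 (without ND replicate 3) without 1 library. The replicate block gave 31 called genes, among the pathway genes only *Mmp12*; 0 of 6 libraries correlated best with their own number. With array weights, 9 of the 52 pathway genes passed (8.56% of all genes did): *Ccr1*, *Ccr3*, *Cxcl10*, *Mmp9*, *Mmp12*, *Mmp14*, *Pf4*, *Plcb2* and *Zfp36*. Of the 52 pathway genes, 22 changed sign of log2 fold change in at least 1 alternative.

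List medians near 0 turned: further ligands to -0.043 at a minimum mean of 100 (fewer genes tested), receptor signalling to -0.0015 under column-total scaling and -0.030 after quantile normalization, and transcript control to -0.054 without HFD replicate 1 (0.068 without HFD replicate 3). The ligand-processing median of 0.46 was 0.096 at a minimum mean of 100, 0.65 with array weights, 0.63 without ND replicate 2 and 0.63 without HFD replicate 3. Without ND replicate 2 the medians of the receptors and further ligands were 0.27 and 0.28, and without HFD replicate 3 that of receptor signalling was 0.036. Why the other values moved was not tested. The planned comparison of protein sequences was not run. Depth limits *Cxcl14*, *Cxcl2* and *Ccl7* most, each with under 100 estimated reads in each library.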
